A study of Mus musculus with 3 samples.

Results

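Natural killer (NK) cells were present among cells sorted as macrophages from the hearts of mice fed a Western diet (WD). A barcode, which stands for 1 captured cell, was counted as an NK cell when it had at least 1000 unique molecular identifiers (UMIs, each marking 1 captured transcript), at least 200 genes and at most 10% of UMIs from mitochondrially encoded genes, when the complement genes C1qa, C1qb and C1qc together held less than 0.3% of its UMIs, when at least 3 of the 6 genes Ncr1, Klrb1c, Gzma, Klre1, Prf1 and Eomes had a UMI, and when the T cell receptor complex genes Cd3e, Cd3d and Cd3g together had at most 1 UMI. This rule found 154 cells among the 4775 WD barcodes past the quality filters, a share of 3.23% (2.74 to 3.77, exact binomial 95% interval). The whole series had 10171 such barcodes, of which 1 more, in the control diet library, met the rule. The cells were chosen by values measured in the same cells, and 1 library was made per diet, so every comparison here is a description without a test. All intervals are 95% intervals that cover counting error only.

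The study profiled cells carrying CD45, F4/80 and CD11b, a surface gate used for cardiac macrophages, from mice labelled Wild type and 32 to 34 weeks old. The groups were WD, a high fat diet (HFD) and a control diet (CD), with 1 droplet-based 3′ library each. The composition and length of the diets, the strain and sex, and the number of mice pooled in each library were not given in the sources used here. Doublets and dead cells were gated out during the sort.

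The same rule found 0 of 2717 HFD cells, which allows a share of up to 0.110% by the floor of 3 counts and 0.136% by the exact binomial limit, and 1 of 2679 CD cells, a share of 0.0373% (0.000945 to 0.208). With the minimum lowered to 500 UMIs the counts were 154 in WD, 0 in HFD and 1 in CD. Summed over all cells past the filters, the 6 rule genes had 215 UMIs per 1000000 (CPM) in WD, 0.921 CPM in HFD and 4.14 CPM in CD, and 8 HFD cells had a UMI of any of them. The single CD cell had 1169 UMIs, with 41 of Gzma, 3 of Klrb1c, 2 of Ncr1, 51 of Ccl5 and 7 of Nkg7, and 0 of the C1q and Cd3 genes. WD cells had a median of 11668 UMIs, against 2751 in HFD and 4223 in CD. When each NK cell was thinned to 1000 UMIs, below the median of either other library, 120 of the 154 (77.9%) still had at least 3 rule genes. The WD matrix was also written by software version 7.2.0, against 3.0.1 for HFD and CD, and only 92 of the 6885 WD barcodes were found in the list shared by HFD and CD, although the labels name v2 chemistry for all 3. Whether chemistry or intron counting differed is not given in the sources at hand, and either would bear on CPM set across the libraries. Diet, sort and library cannot be told apart.

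NK cells are lymphocytes of the innate immune system that kill infected, transformed or stressed cells without prior sensitization. They weigh signals from germline-encoded activating receptors against inhibitory receptors that read MHC class I, and they kill by releasing granules of perforin and granzymes. They also secrete interferon gamma and chemokines that act on macrophages and dendritic cells, and they depend on interleukin 15 for survival. In mouse hearts they are a minor lymphocyte population beside the resident macrophages.

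The promoters of 5 effector and receptor genes of these cells are shown. Ncr1, Gzma, Gzmb and Prf1 were among the 15 genes with the highest ratios of NK cells to macrophages, and Nkg7 was not. Other genes of those 15 also had a promoter in the table and are not shown. Ncr1, Gzma and Prf1 belong to the rule. The sequences are the 250 bases before the annotated start from RefSeq on build GRCm38.p6, 5′ to 3′ on the gene's strand, and capitals mark matches to 3 motifs on either strand, T-box (GGTGTGA), Runx (TGTGGTT) and ETS (CCGGAAG). They belong to Ncr1 (chr7:4337465-4337714, plus strand), Gzma (chr13:113100982-113101231, minus strand), Gzmb (chr14:56262335-56262584, minus strand), Nkg7 (chr7:43436888-43437137, plus strand) and Prf1 (chr10:61297586-61297835, plus strand).
Ncr1: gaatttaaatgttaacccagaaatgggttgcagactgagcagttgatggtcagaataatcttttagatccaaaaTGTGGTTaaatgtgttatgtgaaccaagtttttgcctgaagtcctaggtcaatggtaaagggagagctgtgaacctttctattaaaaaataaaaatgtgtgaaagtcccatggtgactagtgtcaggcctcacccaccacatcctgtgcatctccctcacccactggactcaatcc
Gzma: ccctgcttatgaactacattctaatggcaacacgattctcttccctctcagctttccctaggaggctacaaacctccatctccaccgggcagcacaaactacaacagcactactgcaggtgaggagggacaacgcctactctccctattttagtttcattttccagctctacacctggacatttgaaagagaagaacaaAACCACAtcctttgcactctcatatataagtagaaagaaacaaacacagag
Gzmb: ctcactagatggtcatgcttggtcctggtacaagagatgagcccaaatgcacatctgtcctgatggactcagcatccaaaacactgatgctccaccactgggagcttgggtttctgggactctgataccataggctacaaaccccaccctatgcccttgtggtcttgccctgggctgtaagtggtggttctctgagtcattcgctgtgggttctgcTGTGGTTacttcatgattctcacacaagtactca
Nkg7: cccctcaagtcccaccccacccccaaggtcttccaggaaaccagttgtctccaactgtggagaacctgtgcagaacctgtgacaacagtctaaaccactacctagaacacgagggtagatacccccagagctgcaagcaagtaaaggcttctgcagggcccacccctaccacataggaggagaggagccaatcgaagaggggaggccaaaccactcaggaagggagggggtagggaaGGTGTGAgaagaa
Prf1: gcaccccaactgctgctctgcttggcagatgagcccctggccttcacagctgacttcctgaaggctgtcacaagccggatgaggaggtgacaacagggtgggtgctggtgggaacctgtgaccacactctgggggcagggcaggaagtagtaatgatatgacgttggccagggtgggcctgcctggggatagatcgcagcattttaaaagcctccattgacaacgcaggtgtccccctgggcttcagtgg
The Runx letters began 176 bases before the start of Ncr1, 51 before that of Gzma and 34 before that of Gzmb, and the T-box letters began 13 bases before that of Nkg7. Of the 6 rule genes, all 6 had a promoter in the table, and 3 of them (Ncr1, Gzma and Klre1) held the Runx letters. The Runx letters were in 4.40% of all 32851 promoters and 5.08% of the 27025 genes they belong to, the T-box letters in 3.33% and 3.84%, and the ETS letters in 6.91% and 7.83%. Of the 15 genes with the highest ratio of NK cells to C1q-high cells, 11 had a promoter in the table, and 3 of these held the Runx letters. Of 12 NK genes outside the rule, 7 had one, of which 3 held the Runx letters and 1 the T-box letters. The ETS letters were in none of these windows. A match describes the letters of the window and is not a measured binding site.

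The NK cells were smaller libraries than the macrophages around them. They had 1186 to 22753 UMIs with a median of 6808.5, against a median of 12242 in the 3717 WD cells with C1q genes at 0.3% of UMIs or more, called C1q-high cells here. The median number of genes was 2669.5 in NK cells and 3314 in C1q-high cells, and the mitochondrial share was 2.32% in NK cells and 4.43% in C1q-high cells. Of the 154 cells, 102 had all 6 rule genes, 37 had 5, 6 had 4 and 9 had 3. C1q genes held a median of 0.0289% of their UMIs, 143 cells were under 0.1%, and 25 had no C1q UMI. Just inside the limit, 5 NK cells had C1q shares between 0.2% and 0.3%, and just outside it 4 barcodes with at least 3 rule genes had between 0.3% and 0.4%. The 9 cells with exactly 3 rule genes had a median of 3068 UMIs, close to the 3000 of the 7 C1q-low barcodes with 2 that fell just outside. A further 3 C1q-low barcodes met the marker rule but had 2 or more Cd3 UMIs.

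**Figure D1:**
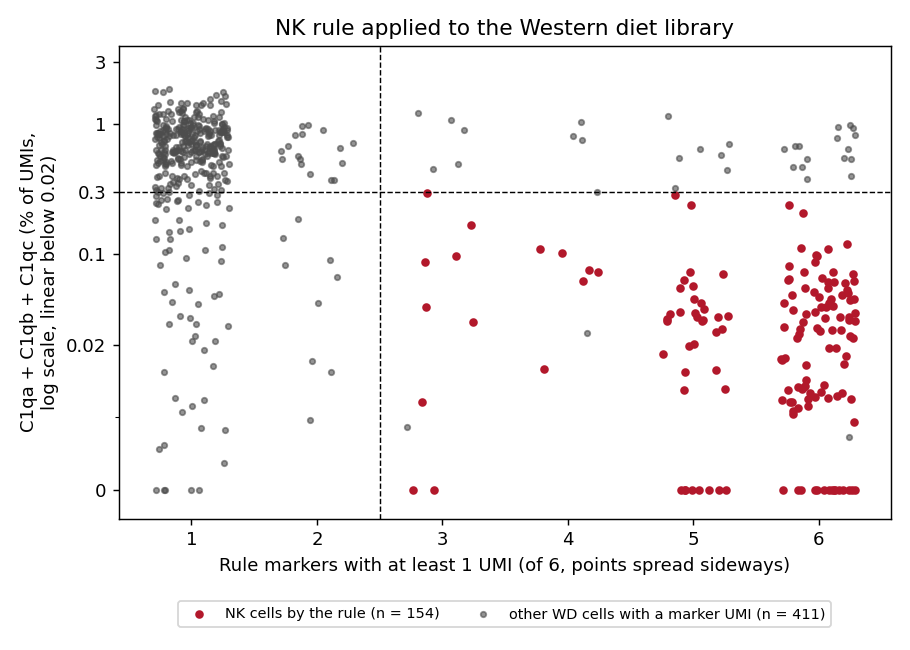
Each point is 1 WD cell with a UMI of at least 1 rule gene; the horizontal axis gives the number of rule genes with a UMI and the vertical axis the percent of UMIs from the C1q genes on a log scale that is linear below 0.02. The 154 NK cells (red) fill the corner below 0.3% and at 3 or more genes, while some barcodes above the limit also carry 3 or more, and dashed lines mark the limits.

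NK markers that the rule did not use were also higher in these cells. They were listed with earlier results of these data known, so they are not an independent check. All 12 NK identity genes outside the rule were at least 2-fold higher in NK cells than in C1q-high cells, where 25.8% of the 7230 genes that reached 20 CPM in either population were that much higher. Each NK cell had UMIs of 0 to 12 of these genes with a median of 11, and 145 of 154 had at least 8. In C1q-high cells the median was 0, and 33 of 3717 had at least 8. In the 24 T-marked cells, C1q-low barcodes with at least 2 Cd3 UMIs, the median was 4 and 3 cells had at least 8. The 9 NK cells with fewer than 8 identity genes included 1 with none, which had 57 UMIs of S100a9, a calcium-binding protein of neutrophils and monocytes, among its 3456 UMIs. Graph clustering, which did not apply the rule but did not leave out its genes, placed 152 of the 154 in 1 cluster of 187 cells. It is therefore not independent of the rule. The other 35 cells of that cluster failed the rule through C1q genes in 25, too few rule genes in 7 and Cd3 UMIs in 3.

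The gate that defined the sort was only in part matched by the cells' transcripts. Ptprc, which encodes CD45, had 4448 CPM (4324 to 4576) in NK cells and 766 CPM (759 to 773) in C1q-high cells, and every NK cell had a UMI of it. Itgam, which encodes CD11b, a mark of mature NK cells as well as of myeloid cells, had 464 CPM in NK cells and 219.6 CPM in C1q-high cells, a ratio of 2.11 (1.93 to 2.31). Its log2 ratio was 1.08 and came to 0.91 against cells at 1% C1q or more. Adgre1, which encodes F4/80, had 18.4 CPM (11.2 to 28.4) in NK cells and 378 CPM in C1q-high cells, so it was 20.5-fold lower (13.3 to 33.6) in NK cells. After thinning to 1000 UMIs per cell, 1.30% of NK cells and 30.7% of C1q-high cells had an Adgre1 UMI. Of the 3 gate genes, 2 were thus at least 2-fold higher in NK cells and the F4/80 gene was lower.

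Most genes of the killing machinery were higher in NK cells than in macrophages. Of 23 granule and release genes, 19 passed the filter. Of these 12 were at least 2-fold higher in NK cells and 4 lower, where 25.8% and 18.2% of all genes were. Their median log2 ratio was 6.92, against 0.43 over all genes that passed. Without Gzma and Prf1, which the rule used, 10 of 17 were higher and 4 lower, with a median of 3.89. Gzma, a tryptase granzyme and a gene of the rule, had 0 to 18790.5 CPM per NK cell with a median of 7992, against 0 to 6101 CPM per C1q-high cell with a median of 0. Most NK cells lay above every C1q-high cell, but the ranges overlapped. Prf1, the pore-forming protein perforin and also a rule gene, summed to 1018 CPM in NK cells and 3.65 CPM in C1q-high cells.

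Gzmb, the granzyme that activates caspases in target cells, was outside the rule. It had 0 to 4075 CPM per NK cell with a median of 776 and summed to 973 CPM (915 to 1033) in NK cells, against 3.22 CPM (2.78 to 3.71) in C1q-high cells, a ratio of 302 (259 to 354). Both granzymes were detected together in 134 NK cells, Gzma alone in 12, Gzmb alone in 3 and neither in 5. Nkg7, a granule membrane protein needed for cytotoxic degranulation, summed to 2578 CPM in NK cells and 10.1 CPM in C1q-high cells. Fasl, the death ligand that triggers Fas on target cells, had 196 CPM in NK cells and 1.15 CPM in C1q-high cells.

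The granzymes present were of a narrow set. Gzmk had 0 UMIs, Gzmc 1 and Gzmm 9 over all 154 cells. Serine protease inhibitors that shield cytotoxic cells from their own granzymes were high, with Serpinb9 at 635 CPM in NK cells and 5.26 CPM in C1q-high cells, and Serpinb6b at 359 CPM in NK cells and 1.78 CPM in C1q-high cells. Serpinb9b had the highest ratio among genes with at least 100 UMIs in NK cells, 540.0 (298 to 1075), from 117 UMIs in NK cells and 12 in C1q-high cells. Its UMIs were unevenly spread, since 15 cells held 86.3% of them, and reads from near-identical Serpinb9 relatives may have been shared between these genes.

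Granule genes shared with macrophages went the other way. Ctsc, the protease that activates granzymes and lysosomal enzymes, was 3.94-fold lower in NK cells (272 CPM, against 1072 CPM in C1q-high cells). Srgn, the granule proteoglycan serglycin, was 2.13-fold lower (log2 ratio -1.09, and -0.86 against cells at 1% C1q or more), and the lysosomal membrane genes Lamp1 and Lamp2 were 5.04-fold and 5.42-fold lower. Other granule genes were higher. Cst7, the protease inhibitor cystatin F, had 136 CPM in NK cells and 0.614 CPM in C1q-high cells. Rab27a, which docks granules at the membrane, had 173 CPM in NK cells and 11.7 CPM in C1q-high cells, and Sytl2, which binds Rab27 proteins, had 222 CPM in NK cells and 0.747 CPM in C1q-high cells. Ctsw, a protease found in cytotoxic lymphocytes, had 312 CPM in NK cells and 1.99 CPM in C1q-high cells. Lyst, a lysosomal trafficking regulator, was within 2-fold, at 111 CPM in NK cells and 74.2 CPM in C1q-high cells, with a log2 ratio of 1.07 against cells at 1% C1q or more.

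**Figure D2:**
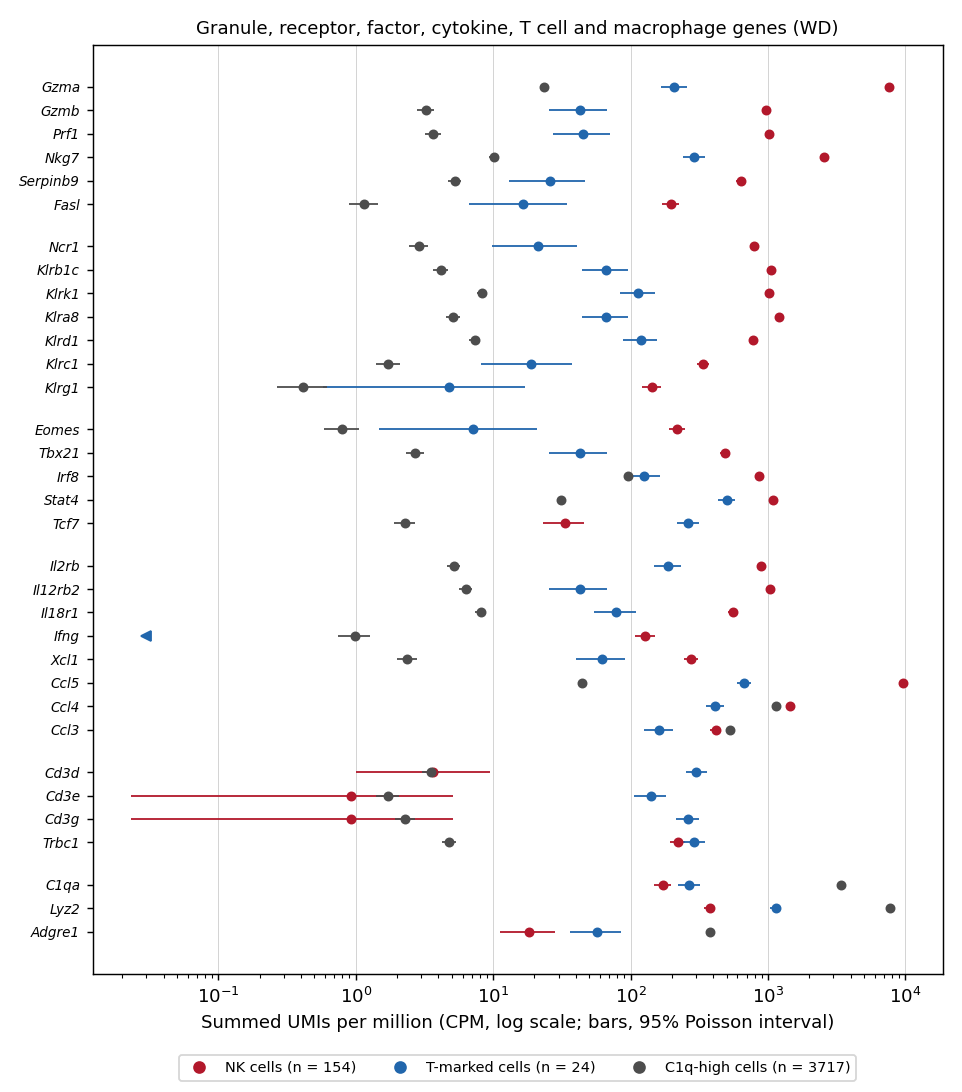
Summed level of 33 genes in NK cells (red), T-marked cells (blue) and C1q-high cells (grey) of the WD library, in CPM on a log axis with exact Poisson 95% intervals; the triangle marks a sum of 0. Granule, receptor and factor genes lie furthest right in NK cells except Tcf7, Ccl3 and Ccl4 are close in NK and C1q-high cells, and the Cd3 genes are lower in NK cells than in T-marked cells and the macrophage genes lower than in both.

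Activating receptors and their adaptors were mostly higher in NK cells. Of 18 genes that passed the filter (of 19), 14 were higher and 1 lower, where 25.8% and 18.2% of all genes were. Their median log2 ratio was 5.00. Without the rule genes Ncr1 and Klrb1c, 12 of 16 were higher, with a median of 4.10. Klrk1, which encodes the stress-ligand receptor NKG2D, had 0 to 2831 CPM per NK cell with a median of 966, and summed to 1013 CPM (954 to 1074) in NK cells and 8.30 CPM (7.59 to 9.06) in C1q-high cells. The rule genes Ncr1, the natural cytotoxicity receptor NKp46, and Klrb1c, the NK1.1 antigen, had 796 and 1059 CPM in NK cells, against 2.87 and 4.17 CPM in C1q-high cells. Klrc2, an activating partner of CD94, had 521 CPM in NK cells and 1.94 CPM in C1q-high cells. Other activating receptors were shared with some macrophages and differed less. Cd244a, the receptor 2B4 that binds CD48, had 314 CPM in NK cells and 14.1 CPM in C1q-high cells, and Cd226, the receptor DNAM-1, had 204 CPM in NK cells and 22.8 CPM in C1q-high cells. Slamf7 was within 2-fold, at 161 CPM in NK cells and 81.6 CPM in C1q-high cells, but its log2 ratio of 0.98 came to 1.93 against cells at 1% C1q or more. Tnfrsf9, the costimulatory receptor 4-1BB, had 129 CPM in NK cells and 2.82 CPM in C1q-high cells.

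The adaptors that carry the signal split into a shared and an NK set. Tyrobp, which encodes DAP12, had 1733 CPM in NK cells and 1088 CPM in C1q-high cells, and Fcer1g, the Fc receptor gamma chain, had 1676 CPM in NK cells and 1262 CPM in C1q-high cells, both within 2-fold. Cd247, the zeta chain, was 81.1-fold higher in NK cells (69.9 to 94.1) and Hcst, the NKG2D adaptor DAP10, 13.3-fold higher (11.8 to 14.9). Fcgr3, the low-affinity Fc receptor CD16 that NK cells use against antibody-coated targets, was the 1 lower gene, with 51.5 CPM (38.9 to 66.9) in NK cells and 499 CPM in C1q-high cells. A UMI of Fcgr3 was found in 24.0% of NK cells, and in 2.60% after thinning, against 95.3% and 38.9% of C1q-high cells.

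Inhibitory receptors had a median log2 ratio of 7.12. Of 16 genes that passed the filter (of 21), 13 were higher in NK cells and 3 lower, where 25.8% and 18.2% of all genes were. Without the rule gene Klre1, 12 of 15 were higher, with a median of 6.99. Klrd1, which encodes CD94, had 778 CPM in NK cells and 7.32 CPM in C1q-high cells, and its inhibitory partner Klrc1, NKG2A, had 337 CPM in NK cells and 1.73 CPM in C1q-high cells. Klrc1 was detected in 51.9% of NK cells and Klrc2 in 87.7%, and these shares were 25.3% and 35.1% after thinning. The thinned shares in C1q-high cells were 0.0538% for Klrc1 and 0.135% for Klrc2. The list also counted the lectin-like partners Klri2 and Klre1, the second a rule gene, although this pair is not an inhibitory one. They had 485 and 1046 CPM in NK cells, against 1.98 and 4.22 CPM in C1q-high cells. Klrb1b, the inhibitory receptor for Clec2d, had 449.7 CPM in NK cells and 12.4 CPM in C1q-high cells. The 3 lower genes were Lilrb4a, Pilra and Havcr2, with 89.2, 4.60 and 5.52 CPM in NK cells, against 596, 44.2 and 41.5 CPM in C1q-high cells. The checkpoint genes Pdcd1 and Lag3 had 2 and 1 UMIs over all NK cells. Tigit, Cd96 and Cd160 were higher in NK cells, with log2 ratios of 7.25, 6.13 and 6.69.

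Receptor genes of the Klr family lie together in the genome. Leaving out the Klrg genes, 24 Klr genes were placed by the GRCm38 annotation between positions 128609227 and 131247362 of chromosome 6, a span of 2.64 Mb. Of 26 Klr genes including Klrg1 and Klrg2, 21 passed the filter. Of these 20 were higher in NK cells and 1 was lower, where 25.8% and 18.2% of all genes were. The exception was Klra2, at the far end of the cluster (chr6:131219223-131247362), with 3.68 CPM (1.00 to 9.42) in NK cells and 47.1 CPM (45.4 to 48.9) in C1q-high cells. It was 12.8-fold lower in NK cells (5.00 to 47.0), from 4 UMIs.

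The Ly49 receptors, lectin-like receptors for MHC class I encoded by the Klra genes, differed from cell to cell. Klra8, the activating receptor Ly49H, had 0 to 7305 CPM per NK cell with a median of 973, and Klra9, the inhibitory Ly49I, had 0 to 3807 CPM with a median of 499. Each was detected in 72.7% of the cells. Among other Ly49 genes the shares were 45.5% for Klra7, 42.2% for Klra4, 41.6% for Klra3 and 9.09% for Klra1, and Klra6 and Klra5 were found in 4 and 2 cells. Klra10 was also higher in NK cells than in C1q-high cells, with a log2 ratio of 7.83. After thinning to 1000 UMIs per cell, Klra8 was found in 52.6% and Klra9 in 48.1% of NK cells, against 0.296% and 0.269% of C1q-high cells. The genes did not mark one group of cells: Klra8 and Klra9 were both detected in 79 cells, each alone in 33, and neither in 9.

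A cell had UMIs of 0 to 6 of 8 of these Ly49 genes, which left out Klra10 and Klra2, with a median of 3. The counts were 4 cells with none, 15 with 1, 39 with 2, 44 with 3, 43 with 4, 8 with 5 and 1 with 6. There were 44 distinct combinations among 154 cells. Cells with none had a median of 3711.5 UMIs, those with 1 had 5114, those with 2 had 7270, those with 3 had 6518.5 and those with 4 had 7456, so the cells with fewest genes were the shallowest. The part of depth in these counts was not tested. Klra7 and Klra1, both inhibitory, were detected together in 11 of the 14 cells with Klra1. These paralogs share much of their sequence, so reads may have been divided between them and single-gene values are uncertain. Klra4, the activating Ly49D, summed to 702 CPM in NK cells and 2.74 CPM in C1q-high cells, and had 0 UMIs in T-marked cells.

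**Figure D3:**
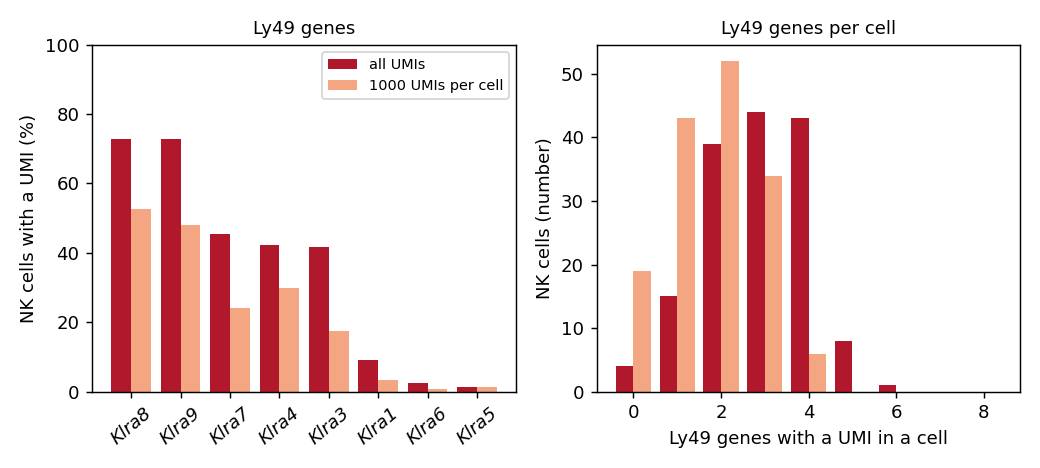
Left, percent of the 154 NK cells with a UMI of each of 8 Ly49 genes, with all UMIs (red) and after thinning to 1000 UMIs per cell (orange); right, number of cells by how many of the 8 genes had a UMI. Klra8 and Klra9 were found in 72.7% of cells each with all UMIs, and the most frequent number of genes was 3 with all UMIs and 2 after thinning.

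Of the transcription factors of NK cells, 19 passed the filter (of 20). Of these 15 were higher and 1 lower, where 25.8% and 18.2% of all genes were, with a median log2 ratio of 1.94. Without the rule gene Eomes, 14 of 18 were higher, with a median of 1.82. Tbx21, which encodes T-bet, had 0 to 2929.7 CPM per NK cell with a median of 388, and summed to 486 CPM (445 to 529) in NK cells and 2.71 CPM in C1q-high cells. Eomes, its T-box relative and a rule gene, had 219 CPM in NK cells and 0.797 CPM in C1q-high cells. Both were detected in 94 NK cells, Tbx21 alone in 35, Eomes alone in 14 and neither in 11. Other factors of lymphocyte development were also higher, with Ets1 at 932 CPM, Stat4 at 1094 CPM, Ikzf3 at 635 CPM and Tox at 458 CPM in NK cells. In C1q-high cells these had 20.4, 31.2, 6.16 and 6.87 CPM. Irf8, a factor of myeloid cells that also acts in NK cells, had 868 CPM in NK cells and 96.5 CPM in C1q-high cells, with a 95% interval of their ratio of 8.39 to 9.64. Id2, Bach2, Runx3, Foxo1, Rora and Prdm1 were between 2.42-fold and 3.84-fold higher.

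Factors shared with macrophages did not differ that much. Zeb2, a repressor that drives late maturation of NK cells and also acts in macrophages, had 1873 CPM (1793 to 1957) in NK cells and 1793 CPM in C1q-high cells, within counting error of each other. Klf2, which controls lymphocyte traffic, was the 1 lower gene, with 1089.8 CPM in NK cells and 2516 CPM in C1q-high cells. Tcf7, a factor of early lymphocytes, was detected in 16.2% of NK cells and had 33.1 CPM in them, against 2.27 CPM in C1q-high cells and 263 CPM in T-marked cells. It was thus 7.96-fold lower than in T-marked cells (5.42 to 11.9).

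Of 15 cytokine and chemokine genes, 11 passed the filter, 4 were higher in NK cells and 3 lower, where 25.8% and 18.2% of all genes were, with a median log2 ratio of -0.34. Ccl5, the chemokine RANTES, had 0 to 29882 CPM per NK cell with a median of 8681, against 0 to 9606 CPM with a median of 0 in C1q-high cells. It summed to 9577 CPM (9394 to 9763) in NK cells and 44.4 CPM (42.7 to 46.1) in C1q-high cells, a ratio of 216 (207 to 225). Nearly every NK cell thus carried it, with a UMI in 97.4% of them and in 92.2% after thinning, against 1.61% of thinned C1q-high cells. Ifng, which encodes the macrophage-activating cytokine interferon gamma, had 0 to 2978 CPM per NK cell with a median of 0, and summed to 128 CPM (107 to 151) in NK cells and 0.980 CPM in C1q-high cells. Xcl1, lymphotactin, which attracts cross-presenting dendritic cells, summed to 277 CPM in NK cells and 2.37 CPM in C1q-high cells. Flt3l, the growth factor of dendritic cells, had 24.8 CPM in NK cells and 5.20 CPM in C1q-high cells.

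Most UMIs of the inducible cytokines lay in few cells, although Ccl3 and Ccl4 were detected in many more. Of the UMIs in NK cells, the 15 cells with the most held 57.6% for Ifng, 82.1% for Xcl1, 56.5% for Ccl3 and 53.7% for Ccl4, against 22.5% for Gzma and 26.8% for Ccl5. Such a share also rises when a gene has few UMIs, and it was not adjusted for that. Ifng and Xcl1 were both detected in 19 cells, Ifng alone in 39, Xcl1 alone in 26 and neither in 70. Ccl3 and Ccl4, the macrophage inflammatory proteins, were detected together in 85 cells, Ccl3 alone in 11, Ccl4 alone in 38 and neither in 20. Their sums were close to those of the macrophages: Ccl4 had 1448 CPM in NK cells and 1154 CPM in C1q-high cells, and Ccl3 had 418 CPM in NK cells and 531 CPM in C1q-high cells. Tnf, Osm and Areg were the 3 lower genes, with 18.4, 12.9 and 0.920 CPM in NK cells, against 101, 50.9 and 21.9 CPM in C1q-high cells. Areg rested on 1 UMI in NK cells, an interval of 4.26 to 939 for its fold. Csf2 had 3 UMIs and Il10 had 1 UMI over all NK cells.

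**Figure D4:**
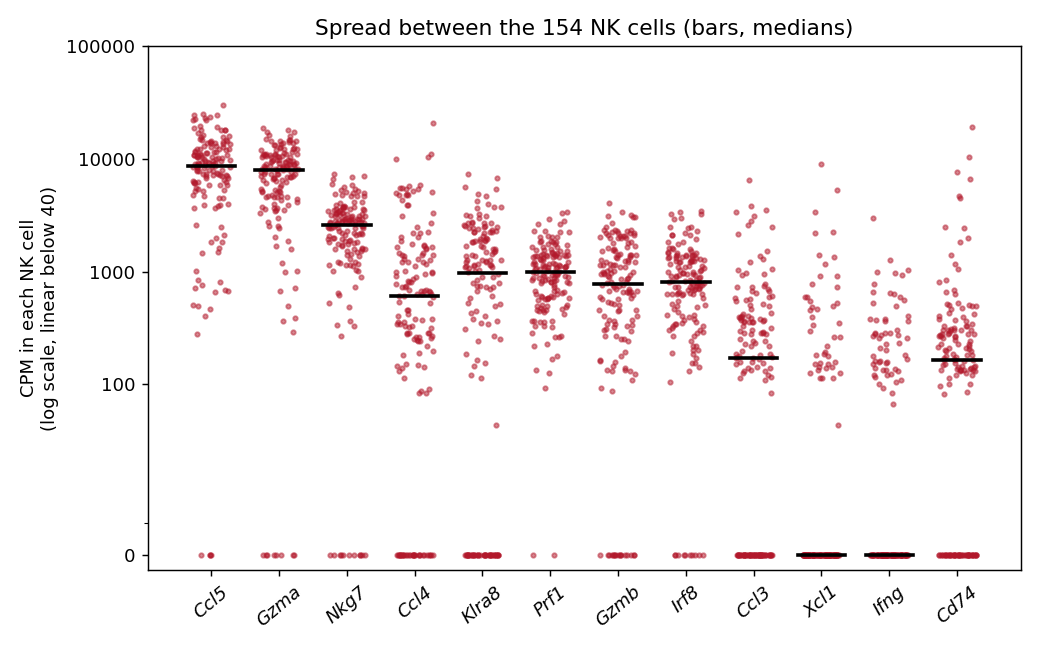
CPM of 12 genes in each of the 154 NK cells (points) with the median (bar), on a log axis that is linear below 40. Ccl5, Gzma and Nkg7 were spread around high medians, Xcl1 and Ifng had medians of 0 with some cells above 1000, and a few cells were high for Cd74.

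Several receptors for NK-activating cytokines were higher in NK cells. Of 22 cytokine receptor and signalling genes, 17 passed the filter. Of these 9 were higher and 2 lower, where 25.8% and 18.2% of all genes were, with a median log2 ratio of 1.11. Il2rb, the beta chain of the interleukin 2 and 15 receptors, had 896 CPM in NK cells and 5.16 CPM in C1q-high cells, and the common gamma chain Il2rg had 201 CPM in NK cells and 31.4 CPM in C1q-high cells. Il12rb2, of the interleukin 12 receptor, had 1036 CPM (976 to 1098) in NK cells and 6.31 CPM in C1q-high cells. Its partner Il12rb1 had 17 UMIs in NK cells and stayed under the filter. The interleukin 18 receptor genes Il18r1 and Il18rap had 556 and 934 CPM in NK cells, against 8.12 and 20.04 CPM in C1q-high cells. Il18rap was detected in 97.4% of NK cells and 58.4% after thinning, against 1.43% of thinned C1q-high cells. Il2ra, the alpha chain of the high-affinity interleukin 2 receptor, had 0 UMIs.

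Downstream genes differed less. Ifngr1, a receptor chain for interferon gamma, was 4.36-fold higher in NK cells (4.11 to 4.63), and Stat5b, a transducer of interleukin 2 and 15 signals, was 2.15-fold higher, with a log2 ratio of 0.93 after thinning. Jak1 and Stat3 were within 2-fold, with 1354 and 570.2 CPM in NK cells and 699 and 537 CPM in C1q-high cells, though the log2 ratio of Jak1 came to 1.21 against cells at 1% C1q or more. Tgfbr2, a receptor chain for the inhibitory cytokine TGF-beta, had 120.5 CPM in NK cells and 214 CPM in C1q-high cells, a log2 ratio of -0.83 that came to -1.01 after thinning. Socs3, a feedback inhibitor of cytokine signalling, was 6.19-fold lower in NK cells (5.26 to 7.33) and Tgfbr1 2.60-fold lower.

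Many proximal signalling genes were higher in NK cells. Of 22 genes, 20 passed the filter. Of these 13 were higher in NK cells and 1 lower, where 25.8% and 18.2% of all genes were, with a median log2 ratio of 2.95. The tyrosine kinases Lck, Txk and Fyn had 250.2, 794 and 887 CPM in NK cells, against 2.46, 7.46 and 126 CPM in C1q-high cells. The adaptor Skap1, the kinase Prkcq and the phosphatase Ptpn22 had 1229.6, 696 and 917 CPM in NK cells, against 18.4, 8.20 and 52.0 CPM in C1q-high cells. Sh2d1a, the adaptor SAP of the SLAM receptors, had 123 CPM in NK cells and 1.13 CPM in C1q-high cells. Plcg2, the phospholipase used by NK receptors, was 2.36-fold higher (2.06 to 2.70), with a log2 ratio of 0.89 after thinning. Genes that macrophages also use were closer: Inpp5d had 589 CPM in NK cells and 563 CPM in C1q-high cells, Syk 246 CPM in NK cells and 453 CPM in C1q-high cells, and Dok2 129.7 CPM in NK cells and 70.9 CPM in C1q-high cells. The log2 ratio of Syk was -0.88 and came to -1.07 at a C1q limit of 0.05%. Vav1 and Lcp2 were also within 2-fold, with 108 and 161 CPM in NK cells and 102 and 161 CPM in C1q-high cells. The 1 lower gene was Vav3, a guanine nucleotide exchange factor, with 254 CPM in NK cells and 571 CPM in C1q-high cells. Its log2 ratio was -1.17 and came to -0.90 at a C1q limit of 0.5%.

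Of 24 migration and adhesion genes, 20 passed the filter. Of these 14 were higher in NK cells and 2 lower, where 25.8% and 18.2% of all genes were, with a median log2 ratio of 2.50. Itga2, which encodes CD49b, the integrin chain used to mark conventional NK cells, had 666 CPM (618 to 716) in NK cells and 3.27 CPM in C1q-high cells, a ratio of 204 (174 to 239.5). Itga1, which encodes CD49a, a mark of tissue-resident cells, had 32 UMIs in 6 of the 154 cells. The leukocyte integrins Itga4, Itgal, Itgb2 and Itgb7 had 1608, 532, 545 and 171 CPM in NK cells, against 193, 21.8, 130.3 and 10.7 CPM in C1q-high cells. Itgb1 was within 2-fold, with 681 CPM in NK cells and 371 CPM in C1q-high cells. Selplg, the P-selectin ligand, had 434 CPM in NK cells and 105 CPM in C1q-high cells.

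The receptors that guide cells through tissue and blood differed from gene to gene. S1pr5, the sphingosine phosphate receptor by which NK cells leave lymphoid organs, had 124 CPM in NK cells and 1.11 CPM in C1q-high cells. Cd69, a retention and activation marker, was 7.66-fold higher in NK cells (6.31 to 9.22). Ccr2, Cxcr4 and Cx3cr1 were within 2-fold, at 143, 143 and 83.7 CPM in NK cells and 88.4, 211 and 91.9 CPM in C1q-high cells. The log2 ratio of Ccr2 was 0.70 and came to 2.06 against cells at 1% C1q or more. Cd44 and S1pr1 were the 2 lower genes, at 313 and 18.4 CPM in NK cells and 674 and 52.8 CPM in C1q-high cells. The log2 ratio of Cd44 came to -0.40 against cells at 1% C1q or more and that of S1pr1, which had 20 UMIs before thinning, to -0.77 after it. Ccr7, Cxcr6 and Cxcr3 had 0, 1 and 4 UMIs over all NK cells.

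Genes of both late and early maturation were higher in NK cells. Of 11 late genes, 10 passed the filter and 8 were higher in NK cells with none lower. Of 11 early genes, 9 passed and 8 were higher with none lower. Over all genes that passed, 25.8% were higher and 18.2% lower. Summed, the late genes had 4831 CPM (4701 to 4963) in NK cells and 2183 CPM in C1q-high cells, and the early genes 1284 CPM (1217 to 1353) in NK cells and 137 CPM in C1q-high cells. Zeb2, with a log2 ratio of 0.06, made up most of the late sum in C1q-high cells. Klrg1, a receptor gained by mature NK cells, had 143 CPM in NK cells and 0.415 CPM in C1q-high cells and was detected in 41.6% of NK cells. Spn, which encodes CD43, had 382 CPM in NK cells and 15.6 CPM in C1q-high cells. Cma1, a chymase gene known from mast cells, had 261 CPM in NK cells and 2.16 CPM in C1q-high cells, while the mast and basophil genes Cpa3, Mcpt8, Ms4a2, Fcer1a and Gata2 had 0 UMIs. Ly6c2 summed to 406 CPM in NK cells and 19.0 CPM in C1q-high cells, and was detected in 47.4% of NK cells. Of the early genes, Cd27, a costimulatory receptor lost on maturation, had 26 UMIs in 18 cells. Emb and Ctla2a had 179 and 182 CPM in NK cells, against 58.3 and 23.8 CPM in C1q-high cells, and 15 cells held 79.5% of the Emb UMIs.

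Several markers of other innate lymphoid cells were sparse. Of 11 genes of type 1 innate lymphoid cells (ILC1), 6 passed the filter. Of these 2 were higher and 2 lower in NK cells, where 25.8% and 18.2% of all genes were. The higher genes were Itga1 and Rora, with log2 ratios of 3.33 and 1.28. Il7r, the interleukin 7 receptor, had 28 UMIs in 4 of the 154 cells, Cxcr6 had 1 UMI and Zfp683 had 1 UMI. Tmem176b and Tmem176a were the lower genes, with 21.2 and 14.7 CPM in NK cells, against 431 and 248 CPM in C1q-high cells. Of 11 genes of type 2 and 3 innate lymphoid cells, 3 passed, and Il17rb, Il5, Il13, Il22 and Il17a had 0 UMIs. Gata3, which type 2 cells, T cells and NK cells all use, was the 1 higher gene, with 70.8 CPM in NK cells and 1.05 CPM in C1q-high cells.

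NK cells also differed from the T-marked cells of the library. Over 2387 genes with at least 100 CPM in either population, 16.5% were at least 2-fold higher and 12.3% at least 2-fold lower in NK cells than in the 24 T-marked cells. Among genes with at least 100 UMIs where they were higher, the highest ratios to T-marked cells were in Klra3, Klri2, Klra4, Tmem163 and Klra7. Klri2 had 485 CPM in NK cells and 4.75 CPM in T-marked cells, and Klra4, Tmem163, a zinc transporter, and Klra7 had 0 UMIs in T-marked cells, which makes them at least 98.5-fold, 70.4-fold and 52.3-fold higher in NK cells against a floor of 3 UMIs over the group. The lowest ratios were in Cd3g, Themis, Cd8b1, Cd3d and Il7r, of which the Cd3 genes were used to define both populations. Themis, a protein of T cell selection, and Cd8b1, the CD8 beta chain, had 0 UMIs in NK cells and 224 and 129 UMIs in T-marked cells, so they were at least 193-fold and 111-fold lower in NK cells. Il7r had 25.8 CPM in NK cells and 529 CPM in T-marked cells.

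Some T cell receptor transcripts were nevertheless found in NK cells. Of 15 T cell marker genes, 4 passed the filter against C1q-high cells. All 4 were higher in NK cells, where 25.8% of all genes were. Trbc1 and Trbc2, constant regions of the beta chain, had 221 and 92.0 CPM in NK cells, 289.6 and 337 CPM in T-marked cells and 4.75 and 5.51 CPM in C1q-high cells. Trbc1 was detected in 63.6% of NK cells, while Trac, of the alpha chain, had 8 UMIs in all. Trdc, of the delta chain, had 29.4 CPM in NK cells and 7.12 CPM in T-marked cells, and the costimulatory receptor Cd28 had 78.2 CPM in NK cells and 237 CPM in T-marked cells. Cd8a, Cd8b1, Cd40lg and Foxp3 had 0 UMIs, and Cd3e, Cd3g and Cd3d had 1, 1 and 4, limited by the rule. Of the 24 T-marked cells, 3 also carried at least 3 NK rule genes, so that group held some NK transcripts.

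Macrophage genes were lower in NK cells. All 16 macrophage markers passed the filter and were at least 2-fold lower, where 18.2% of all genes were, with a median log2 ratio of -3.74. The 3 C1q genes among them were used by the rule, and the other 13 had a median of -3.62. Lyz2, lysozyme, had 377 CPM in NK cells and 7784 CPM in C1q-high cells, Apoe, apolipoprotein E, 576 CPM in NK cells and 9876 CPM in C1q-high cells, and Csf1r, the macrophage growth factor receptor, 59.8 CPM in NK cells and 725 CPM in C1q-high cells. Summed, the list had 2103 CPM (2018 to 2191) in NK cells and 34027 CPM in C1q-high cells, with a range of 138 to 13198 CPM over single NK cells. The part of free RNA from macrophages in these levels was not tested.

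The 10 lowest ratios among genes with at least 100 UMIs in C1q-high cells were in 5033421B08Rik, Lyl1, Fcgr4, Rusc2, Retnlg, Batf3, Gpr141, Gkap1, Ralgps2 and Cd180. Each had 1 or 2 UMIs over all NK cells. Lyl1, a haematopoietic transcription factor, had 0.920 CPM in NK cells and 46.6 CPM in C1q-high cells, and was 50.6-fold lower (9.08 to 2001). Fcgr4, an activating Fc receptor of myeloid cells, had 0.920 CPM in NK cells and 41.3 CPM in C1q-high cells, and Batf3, a factor of dendritic cells, 0.920 CPM in NK cells and 37.5 CPM in C1q-high cells. Cd180, a relative of the Toll-like receptors, had 0.920 CPM in NK cells and 32.6 CPM in C1q-high cells. With so few UMIs the order among these genes was not detectable at this depth.

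The 15 highest ratios were in Serpinb9b, Klrg1, Gm43647, Gzma, Fam184a, Gzmb, Klra7, Sytl2, Prf1, Ncr1, Eomes, Styk1, Klrc2, Cdc20b and Klra4. They ran between 256 for Klra4 and 540.0 for Serpinb9b. Gzma, Prf1, Ncr1 and Eomes were part of the rule. Less familiar genes among them were Fam184a, with 109 CPM in NK cells and 0.349 CPM in C1q-high cells, Cdc20b, with 120.5 CPM in NK cells and 0.465 CPM in C1q-high cells, and Gm43647, with 142 CPM in NK cells and 0.432 CPM in C1q-high cells. Styk1, a kinase-like membrane protein also called NOK, had 457 CPM in NK cells and 1.68 CPM in C1q-high cells. Over all genes, 106 were at least 100-fold higher in NK cells, 334 at least 10-fold higher and 266 at least 10-fold lower.

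Part of the NK signal in C1q-high cells came from 30 barcodes that carried both programs. These had at least 3 rule genes, C1q genes at 0.3% of UMIs or more and at most 1 Cd3 UMI. Their median was 18803.5 UMIs, against 6808.5 in NK cells and 12242 in C1q-high cells. Their NK genes stood at 20.8% to 24.9% of the NK level, with Gzma at 1629 CPM, while C1qa had 3142 CPM, against 3432 CPM in all C1q-high cells. They made up 30 of 3717 C1q-high cells but held 85.7% of the Gzma, 85.5% of the Ncr1 and 56.8% of the Ccl5 UMIs there. Gzma and Ncr1 are rule genes by which these barcodes were chosen, so their shares follow in part from that choice. Ccl5 lies outside the rule. A doublet score marked the 182 highest of all 4775 cells (3.81%), a number fixed in advance by the count of cells. These included 21 of the 30 (70.0%) and 6 of the 154 NK cells (3.90%). Without these 30 barcodes, C1q-high cells had 3.40 CPM of Gzma, 0.420 CPM of Ncr1 and 3.40 CPM of Nkg7, so the ratios given above are lower than they would be without them.

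The genes that varied most between NK cells included an antigen presentation gene and chemokines. Among 575 genes with a mean of at least 0.3 UMIs after thinning, the ratio of variance to mean (Fano factor) had a median of 1.20 and was highest for Cd74 at 6.26, Malat1 at 5.37, Ccl4 at 4.72, Ccl5 at 4.52 and Fth1 at 4.42. Tmsb4x, Kcnq5, mt-Co3, H2-Eb1 and Gzma followed, at 4.10 to 3.59. Cd74, the invariant chain of MHC class II, had 0 to 19030.5 CPM per NK cell with a median of 164, against a median of 8449.6 in C1q-high cells, and 15 NK cells held 85.7% of its UMIs. The cell with the most had 433 Cd74 UMIs among 22753, all 12 identity genes and C1q genes at 0.0308% of UMIs. The next 3 had 155, 94 and 73 Cd74 UMIs, 10 to 11 identity genes and C1q genes at 0.207% to 0.241%. H2-Eb1, an MHC class II beta chain, followed the same pattern, with 80.1% of its UMIs in 15 cells. Without the barcodes of highest doublet score, which included 6 NK cells, the log2 ratio to C1q-high cells was -4.72 for Cd74 and -4.44 for H2-Eb1, against -3.19 and -3.00 with them. Kcnq5, a potassium channel gene, had 0 to 8351 CPM per NK cell with a median of 643, and summed to 1271 CPM in NK cells and 10.9 CPM in C1q-high cells.

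Few NK cells showed transcripts of division. Of 154 cells, 2 had UMIs of at least 5 of 15 proliferation genes, a share of 1.30% (0.158 to 4.61), against 231 of 3717 C1q-high cells, or 6.21% (5.46 to 7.04). After thinning, 3.25% of NK cells (1.06 to 7.41) and 3.69% of C1q-high cells (3.10 to 4.34) had at least 2 of them, so no difference was detectable at matched depth. Mki67 had 63 UMIs in 3 NK cells, and the 5 cells with the most held 57.4% of the UMIs of the list. Mcm6, a subunit of the replicative helicase, was 1 of 2 higher genes of the list, with 75.4 CPM in NK cells and 15.7 CPM in C1q-high cells.

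Ligands for NK receptors and cytokines that act on NK cells were measured in the neighbouring macrophages. Of 31 genes listed, 30 were measured and 20 passed the filter, with 3 higher and 6 lower in NK cells, where 25.8% and 18.2% of all genes were. Il15, the survival factor of NK cells, had 21.2 CPM in NK cells and 85.5 CPM in C1q-high cells, and Il18 had 3.68 CPM in NK cells and 34.7 CPM in C1q-high cells. Il12a and Il12b had 0 UMIs in NK cells and 0.216 and 1.36 CPM in C1q-high cells. Cd48, the ligand of 2B4, and Clec2d, the ligand of Klrb1b, had 275 and 199 CPM in NK cells and 149.7 and 138 CPM in C1q-high cells, both within 2-fold. The log2 ratio of Cd48 came to 1.01 at a C1q limit of 0.05%. The MHC class I genes H2-K1 and H2-D1 had 1755 and 1611 CPM in NK cells and 667 and 1351 CPM in C1q-high cells. Fas, the receptor of Fasl, and Pvr, the ligand of DNAM-1, were lower, with 5.52 and 5.52 CPM in NK cells and 55.1 and 35.3 CPM in C1q-high cells. The chemokines Cxcl16 and Ccl2 had 21.2 and 59.8 CPM in NK cells and 212 and 623 CPM in C1q-high cells.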

How the data were processed

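Droplet-based 3′ single-cell libraries (WD, HFD and CD) were analysed. The deposited matrices hold UMI counts, whole numbers that were not normalized, written by software version 7.2.0 for WD and 3.0.1 for HFD and CD, per the file headers. The build was GRCm38 and Seurat was used, per the submitters' processing notes. Aligner settings, cell filters and intron counting were not given in the sources used here. Totals were 79269380 UMIs in WD, 16630481 in HFD and 17464149 in CD.

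UMIs were summed over NK, C1q-high and T-marked cells of WD and divided by the population's total (1087346, 60223618 and 421307 UMIs) to give CPM. Counts, ratios and shares carry exact Poisson, conditional and Clopper-Pearson 95% intervals; a sum of 0 was set to a floor of 3 UMIs. Intervals and floors cover counting error only. A gene counted as higher or lower at 2-fold with at least 20 CPM in either population (100 CPM against T-marked cells). Thinning drew 1000 UMIs per cell without replacement and dropped no cell. No doublets were removed; a score of simulated doublets gave an alternative. Calculations used Python 3.11.15, numpy 2.4.6, scipy 1.17.1, pandas 2.3.3 and scikit-learn 1.9.0, and the counting scripts were tested on simulated data.

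Members and gene lists were chosen with earlier results of these data known. Named genes are the rule genes, members of the functional lists with at least 100 UMIs in NK cells, up to 4 genes of other lists, defining markers at 0, the 15 highest and 10 lowest ratios, the 10 most variable genes and 5 in each direction against T-marked cells. Others (including Gzmc, Gzmm, Fcgr3, Cd27, Tcf7, Gata3, Klra2, Klra1, Klra5, Klra6, Klra10, Itga1, Trac, Tnf, Osm, Flt3l, Tigit, Cd96 and Cd160) were chosen after their values were seen. A few list members are not reported here.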

Additional observations from a re-analysis of the deposited data

How the results depend on the processing

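Changing the minimum UMIs, mitochondrial limit, C1q limit, number of rule genes, Cd3 limit, doublet removal, cell weighting, depth, scaling, comparison cells, CPM filter or fold left 53 of 60 values of the main counts and shares within 1.5 times or their interval. The NK share was 4.68% at a mitochondrial limit of 5% and 2.39% at a C1q limit of 0.05%. That C1q limit was added after the data were seen. So was leaving out every C1q-high barcode with at least 3 rule genes, whatever its Cd3 UMIs. Genes higher and lower numbered 1174 and 866 at 50 CPM, 4068 and 2430 without a CPM filter, and 875 higher at 3-fold, all by construction. Of the named genes and list members past 2-fold, 125 were higher, 120 of them past 2-fold under every alternative that gave gene ratios, and all kept their sign there; 108 were lower, 90 of them past 2-fold wherever they had a value, 2 changed sign, and 2 (Hp and Mmp9, at 0 in NK cells) had no value after thinning. A sum of 0 after thinning leaves only a bound set by the floor. The log2 ratio of Hbb-bs, the 1 erythroid gene past the filter and so also that list's median, was -1.88 and turned to 0.20 at a C1q limit of 0.5% and 0.073 against cells at 1% C1q. That of Fn1 was -1.98 and turned to 0.85 with 2 rule genes and 0.23 against cells at 1% C1q, and the classical monocyte median to 0.71 with 2 rule genes, 0.30 after thinning and 0.23 against cells at 1% C1q; the cause was not tested. The log2 ratio of Gzma, 8.35, came to 11.37 without the C1q-high barcodes with at least 3 rule genes. These were the 30 barcodes with both programs and a few with more than 1 Cd3 UMI. The median of all genes shifted from 0.43 to 0.35 after thinning and 0.36 against cells at 1% C1q. No paired analysis was possible because each diet has 1 library. Depth limits genes with few UMIs, such as the lowest ratios, and 1 library limits everything else.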

Other observations

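Genes of cellular state separated NK cells from macrophages in other ways. All 16 immediate early genes passed the filter. Of these 15 were at least 2-fold lower in NK cells, where 18.2% of all genes were. Fos had 490.2 CPM in NK cells and 3659.7 CPM in C1q-high cells, and Atf3 had 148 CPM in NK cells and 1893 CPM in C1q-high cells. Both encode transcription factors that cells induce quickly on stimulation. Of 13 interferon response genes that passed, 2 were higher and 7 lower in NK cells, where 25.8% and 18.2% of all genes were, with Ifi27l2a at 114 CPM in NK cells and 1256 CPM in C1q-high cells, and Gbp4, an interferon-induced GTPase, at 54.3 CPM in NK cells and 3.17 CPM in C1q-high cells. Of 12 lipid handling genes that passed, none was higher and 9 were lower, where 25.8% and 18.2% of all genes were. The fatty acid receptor Cd36 had 62.5 CPM in NK cells and 484 CPM in C1q-high cells. Abcg1, a cholesterol exporter, was within 2-fold, at 84.6 CPM in NK cells and 47.4 CPM in C1q-high cells, with a log2 ratio of 1.28 after thinning. Of 14 glycolysis genes that passed, 12 were within 2-fold, 1 was higher and 1 lower, where 25.8% of all genes were higher and 18.2% lower. Pfkp, a phosphofructokinase, was the 1 higher gene, with 213 CPM in NK cells and 67.1 CPM in C1q-high cells, and the hexokinase Hk2 the 1 lower, with 28.5 CPM in NK cells and 120.3 CPM in C1q-high cells.

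Of 7 genes of mTORC1 and activation that passed, 1 was higher and 2 lower, where 25.8% and 18.2% of all genes were. Myc had 11 UMIs over the 154 cells. Markers of other cell classes were mostly lower or at 0. Of the neutrophil genes, 5 passed and all 5 were lower in NK cells, where 18.2% of all genes were. The neutrophil list had 164 UMIs over all NK cells, which include 57 of S100a9 in the 1 cell without identity genes. Single NK cells had 0 to 36748 CPM of that list, with a median of 0. Of the cardiomyocyte genes, 6 passed and all 6 were lower, where 18.2% of all genes were. Of the dendritic cell genes, 6 passed, 1 was higher and 4 were lower, where 25.8% and 18.2% of all genes were. The higher gene was Itgax, the integrin chain CD11c, at 75.4 CPM in NK cells and 15.8 CPM in C1q-high cells. The whole list had 1956 CPM in NK cells, of which Cd74 made up 1012. Pecam1, the 1 endothelial gene that passed, had 50.6 CPM in NK cells and 12.2 CPM in C1q-high cells. Among dendritic cell genes, Flt3, Xcr1, Clec9a, Ccr7 and Fscn1 had 0 UMIs in NK cells, among B cell genes Cd79a, Ms4a1, Pax5, Jchain and Iglc2, among endothelial genes Cdh5, Kdr, Cldn5, Emcn and Egfl7, and among fibroblast and mural genes Col1a2, Pdgfra and Rgs5. Of the classical monocyte genes, 7 passed, 2 were higher and 4 lower, where 25.8% and 18.2% of all genes were. The classical monocyte genes summed to 1279 CPM in NK cells and 3152 CPM in C1q-high cells. Of these genes Chil3 and Hp had 0 UMIs, and F13a1 had 274 CPM in NK cells and 2810.1 CPM in C1q-high cells.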
